A study of Mus musculus with 20 samples.

Results

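Cytosolic ribosomal proteins are the proteins that, with ribosomal RNA, build the large and the small subunit of the ribosome that translates nuclear mRNAs. The genes were chosen by symbol alone: every gene of the array table whose symbol is Rpl or Rps with a number, or Rpsa. This took 58 genes of 19938, namely 30 of the large subunit, 21 of the small subunit and 7 paralogs or like genes (Rpl3l, Rpl7l1, Rpl10l, Rpl32l, Rpl39l, Rps4l and Rps27l). A further 17 symbols of the same kind, Rpl3 among them, appear only on probe sets that carry several symbols and are not analysed here. RNA had been taken from the gastrocnemius, a calf muscle, of adult male C57BL/6 mice and hybridised to whole-transcript mouse gene arrays, 1 array a sample and 5 samples a group. NCoR1-MKO muscle lacks the nuclear corepressor NCoR1 in a muscle-specific way and was set against CON, labelled as control with no genotype given in the sources used here. PGC-1alpha-mTg muscle carries a muscle-specific transgene for the coactivator PGC-1alpha and was set against WT, labelled wild type. The promoter that drives the recombinase or the transgene, and whether each array stands for its own mouse, are not given in the sources used here, so the spread behind each p-value may be technical.

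Each ribosome holds a single copy of nearly every ribosomal protein, and the mRNAs of these proteins are among the most abundant in a cell. They begin with a tract of pyrimidines (a TOP tract), which places their translation under mTORC1 and the RNA-binding protein LARP1. In muscle, mitochondria have ribosomes of their own, built from a separate set of nuclear-encoded proteins, and PGC-1alpha is best known for raising genes of the mitochondrion. Striated muscle also expresses Rpl3l, a paralog that takes the place of Rpl3 near the peptidyl transferase centre in a share of its ribosomes.

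Promoter windows are shown for Rpl3l, Rpl36a, Rpl10 and Rps6. Rpl3l was the only member called higher in PGC-1alpha-mTg muscle. Rpl36a and Rpl10 are the members with a window that fell furthest there, and Rps6 is the target of the S6 kinases. The windows run from 250 bases before to 30 bases after the annotated start, 5′ to 3′ on the gene's strand. They come from RefSeq with build GRCm38.p6. Rpl3l has windows at chr17:24727576-24727855 and chr17:24732435-24732714 (both + strand), Rpl36a at chrX:134585404-134585683 (+ strand), Rpl10 at chrX:74270566-74270845 (+ strand) and Rps6 at chr4:86857338-86857617 (− strand). Capitals mark 3 motifs. CTTTCC, read on the gene's strand, is a fixed string of pyrimidines and does not measure TOP tracts. The Rps6 window, for one, holds an unmarked run of pyrimidines near the annotated start. CGGAAG, read on both strands, is the core of sites for ETS factors such as GABP. AAGGTCA, read on both strands, is the binding unit of estrogen-related receptors. The ends of CGGAAG and AAGGTCA share the letters AAG, so these motifs can overlap.
Rpl3l, upstream start: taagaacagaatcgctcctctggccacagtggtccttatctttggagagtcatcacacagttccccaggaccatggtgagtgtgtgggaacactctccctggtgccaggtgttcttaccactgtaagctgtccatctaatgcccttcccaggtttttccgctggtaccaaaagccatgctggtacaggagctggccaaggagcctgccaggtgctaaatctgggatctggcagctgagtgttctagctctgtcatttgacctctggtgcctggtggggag
Rpl3l, downstream start: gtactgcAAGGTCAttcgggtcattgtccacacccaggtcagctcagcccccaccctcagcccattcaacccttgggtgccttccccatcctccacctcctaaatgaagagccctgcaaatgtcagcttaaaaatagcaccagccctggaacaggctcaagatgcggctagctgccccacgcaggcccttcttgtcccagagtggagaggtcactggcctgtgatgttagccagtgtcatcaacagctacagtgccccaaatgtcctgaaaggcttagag
Rpl36a: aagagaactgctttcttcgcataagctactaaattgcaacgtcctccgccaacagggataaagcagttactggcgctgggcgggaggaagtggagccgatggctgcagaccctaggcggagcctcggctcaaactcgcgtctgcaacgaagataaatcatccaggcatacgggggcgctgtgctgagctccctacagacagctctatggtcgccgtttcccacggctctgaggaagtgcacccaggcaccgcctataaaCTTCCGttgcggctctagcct
Rpl10: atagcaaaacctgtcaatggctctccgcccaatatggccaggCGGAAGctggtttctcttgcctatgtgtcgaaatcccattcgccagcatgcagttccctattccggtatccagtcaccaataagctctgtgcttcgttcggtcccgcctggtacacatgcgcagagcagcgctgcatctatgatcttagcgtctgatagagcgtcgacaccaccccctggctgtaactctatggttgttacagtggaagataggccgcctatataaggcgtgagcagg
Rps6: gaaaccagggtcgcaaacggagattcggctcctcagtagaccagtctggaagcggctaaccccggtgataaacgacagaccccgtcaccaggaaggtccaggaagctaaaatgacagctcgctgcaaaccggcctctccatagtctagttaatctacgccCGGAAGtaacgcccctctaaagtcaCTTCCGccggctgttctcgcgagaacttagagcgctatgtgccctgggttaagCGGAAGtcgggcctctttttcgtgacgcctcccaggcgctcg

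In the full windows of 300 bases, which 47 of the 58 members had, CGGAAG was present in 32 members (68.1%), against 18.8% of all 27025 genes with a window. It was present in 15 of the 22 members that fell in PGC-1alpha-mTg muscle and had a window, and in 15 of the 19 subunit genes that were not called. CTTTCC was present in 16 of 47 members (34%), against 16% of all genes, with 8 of the 22 fallen and 6 of the 19 uncalled members. It was matched anywhere in the window, so its absence does not mean that a member lacks a TOP tract. AAGGTCA was present in 4 of 47 members (8.51%), against 5.38% of all genes: Rpl3l, Rpl10l, Rpl24 and Rps3. The CTTTCC counted for Rpl36a lies in its full window but outside the printed bases. A match is a run of letters and says nothing of binding, and the motif that most members hold was not more frequent among those that fell.

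Before the members, the samples were checked. The 10 markers of skeletal muscle averaged 12.9 to 13.5 (log2 RMA value) on the 20 arrays and 6 markers of heart, liver and brain 5.46 to 6.04. Ppargc1a, which encodes PGC-1alpha, was 3.55-fold higher in PGC-1alpha-mTg muscle, and Ncor1 is not analysed here. Array medians lay at 6.034 to 6.075 in NCoR1-MKO and CON muscle and at 5.843 to 5.915 in PGC-1alpha-mTg and WT muscle, so each model is set only against its own controls. Markers of other cells moved in PGC-1alpha-mTg muscle: 5 of 7 endothelial markers rose, 2 of 6 fibroblast markers fell, 3 of 7 satellite cell and regeneration markers fell, and 5 of 7 slow fibre markers fell. Of the 10 skeletal muscle markers 4 fell and 1 rose, of 2 measured nerve and glia markers 1 fell, and of 5 measured adipocyte markers 1 rose. Of all genes 16.1% fell and 11.9% rose in PGC-1alpha-mTg muscle, and these shares were larger among brighter genes, as given below. Over the arrays, the mean of each list relative to WT was 0.27 to 0.44 (log2) in PGC-1alpha-mTg and -0.095 to 0.15 in WT muscle for endothelium, -0.32 to -0.12 in PGC-1alpha-mTg and -0.17 to 0.13 in WT muscle for fibroblasts, and -0.38 to -0.083 in PGC-1alpha-mTg and -0.046 to 0.056 in WT muscle for satellite cells. For slow fibres it was -1.33 to -0.39 in PGC-1alpha-mTg and -0.23 to 0.35 in WT muscle. For skeletal muscle it was -0.059 to -0.034 in PGC-1alpha-mTg and -0.028 to 0.016 in WT muscle, without overlap, and for nerve and glia -0.23 to -0.15 in PGC-1alpha-mTg and -0.13 to 0.12 in WT muscle. In NCoR1-MKO muscle 1 of 7 endothelial and 1 of 10 skeletal muscle markers rose and 2 of 7 slow fibre markers fell. Of all genes 1.31% rose and 1.32% fell there. The skeletal muscle mean relative to CON was 0.0016 to 0.039 on NCoR1-MKO and -0.011 to 0.0092 on CON arrays. All 7 slow fibre changes were negative, with a median of -0.91 (log2), against -0.72 in PGC-1alpha-mTg muscle. The slow fibre mean relative to CON was -1.58 to -0.26 on NCoR1-MKO and -0.62 to 0.47 on CON arrays. All 7 endothelial changes were positive, and their mean was 0.074 to 0.54 on NCoR1-MKO and -0.14 to 0.12 on CON arrays. The part of all these markers in the changes of the ribosomal protein genes was not tested. In whole muscle, a smaller share of cells with many ribosomes and less mRNA in each cell cannot be told apart.

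In PGC-1alpha-mTg muscle, 27 of the 58 ribosomal protein genes fell and 1, Rpl3l, rose relative to WT (limma, adjusted p under 0.05 over 19938 genes). The falls were small, 8.605% to 23.24% of the WT level, and 21 of the 27 separated all 5 PGC-1alpha-mTg arrays from all 5 WT arrays. The median change of all 58 members was -0.13 on the log2 scale, against 0.018 for all genes, and 51 of 58 were negative. Of all genes, 16.1% were called lower and 11.9% higher, 28% in all.

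That background depends on signal, because bright genes were called more often. Among the 2552 genes at least as bright as the lower quartile of the members (9.077 on the log2 scale, a limit chosen after the data were seen), 39.3% were called lower and 24.6% higher, 63.9% in all, with a median of -0.068. Of the 43 members in the same range, 21 (48.8%) fell and 1 (2.33%) rose, with a median of -0.12. The share of members that fell was therefore closer to that of bright genes than to that of all genes, while rises were rare among the members. Of all 58 members, 22 (37.9%) had all 5 PGC-1alpha-mTg arrays below all WT arrays, against 11.2% of all genes. Of the 43 bright members 20 (46.5%) did, against 33.6% of bright genes. Neither gap between the members and the bright genes was tested.

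**Figure D1:**
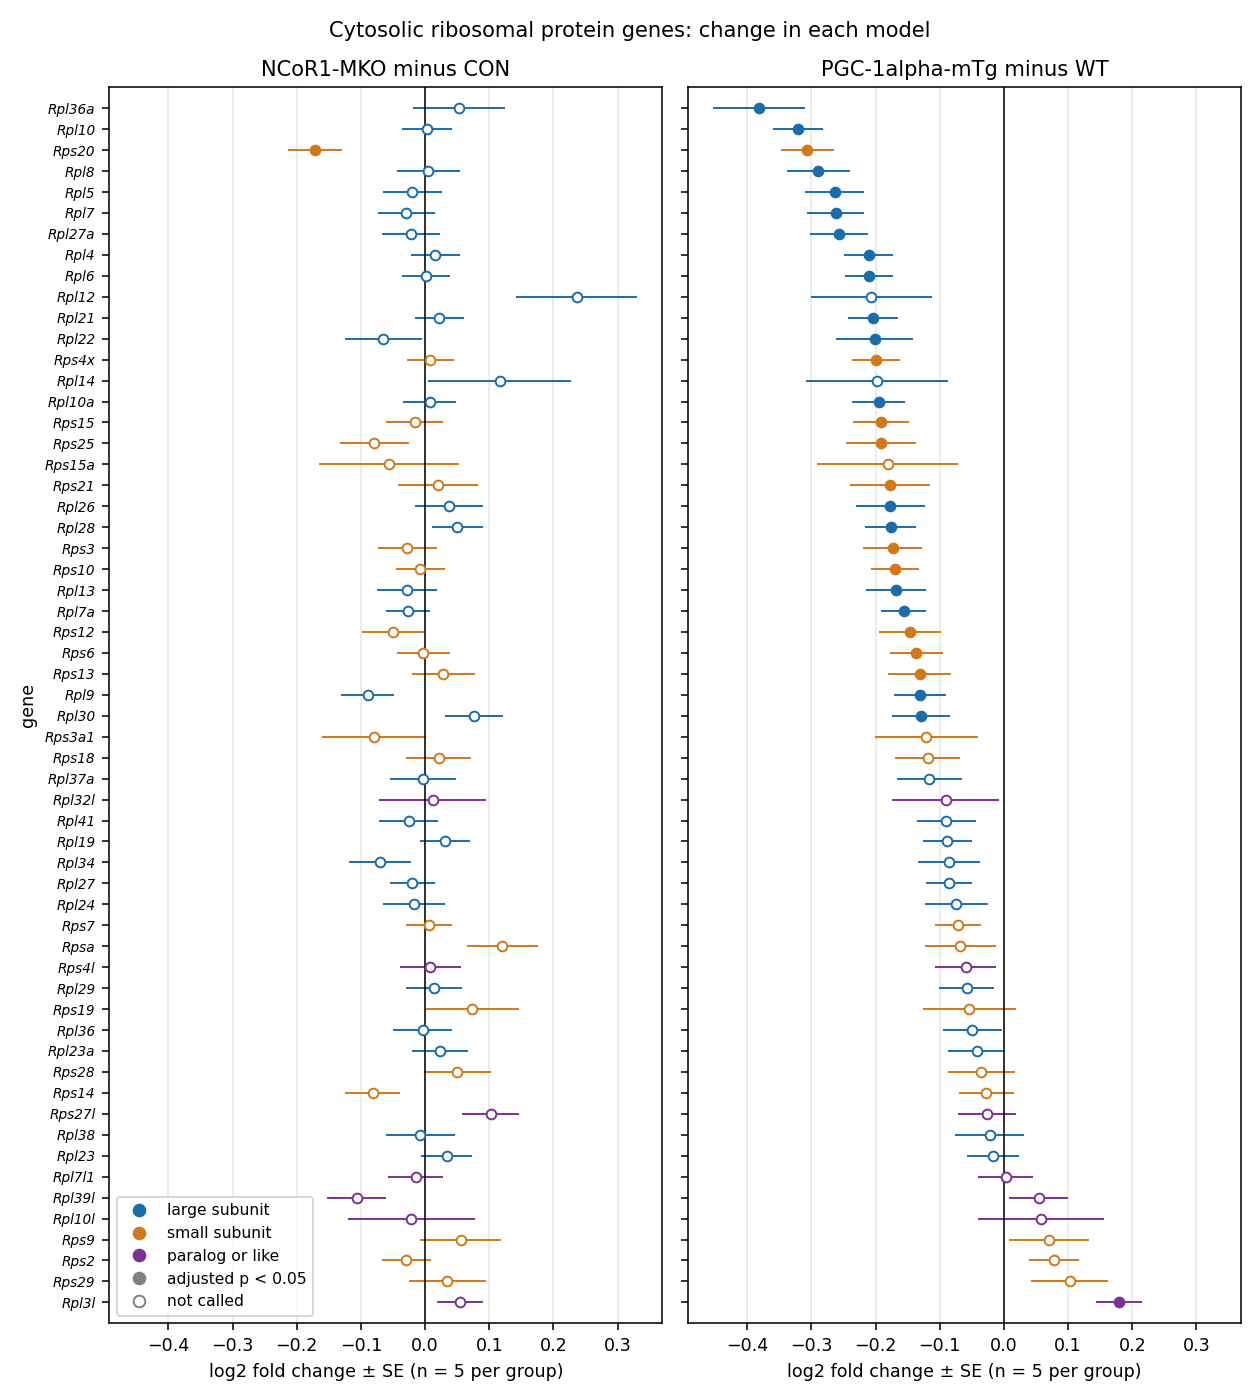
The 58 ribosomal protein genes are ordered by their log2 change in PGC-1alpha-mTg minus WT muscle (right) beside the change in NCoR1-MKO minus CON muscle (left), with bars for the standard error and n = 5 a group. Filled points passed an adjusted p of 0.05: 28 on the right and 1, Rps20, on the left.

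**Figure D2:**
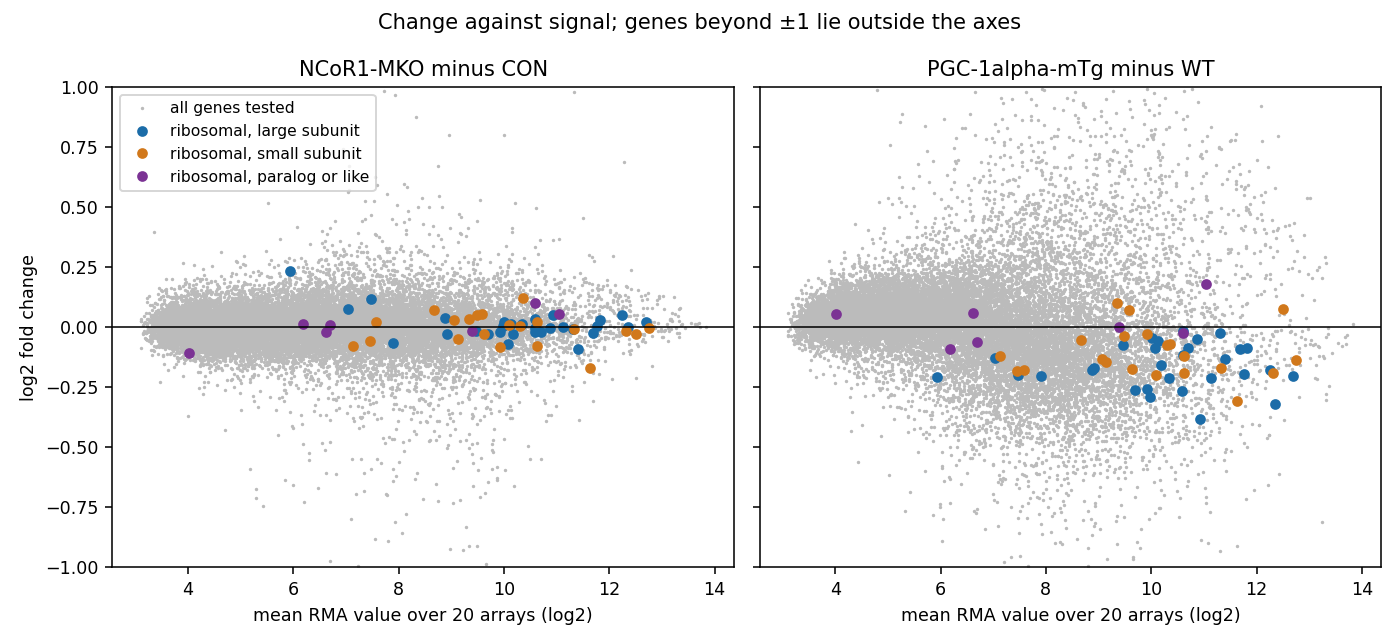
The log2 change of every gene is plotted against its mean RMA value over the 20 arrays, with the ribosomal protein genes in colour. In PGC-1alpha-mTg minus WT muscle most members lie below 0 and Rpl3l lies above it at 0.18, while in NCoR1-MKO minus CON muscle they lie on both sides.

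The fall was seen on each transgenic array. On PGC-1alpha-mTg arrays 1 to 5, 47, 46, 50, 52 and 48 of the 58 members lay below their WT mean, against 28, 18, 22, 30 and 41 members on WT arrays 1 to 5, where the array's own value was left out of the mean. Of all genes, 44.9% to 53.5% lay below that mean on the PGC-1alpha-mTg arrays. The mean deviation of the 30 large subunit genes from their WT mean was -0.20 to -0.12 (log2) on the PGC-1alpha-mTg arrays, against -0.020 to 0.014 on the WT arrays. For the 21 small subunit genes it was -0.14 to -0.069 on the PGC-1alpha-mTg arrays, against -0.026 to 0.021 on the WT arrays. No array of one group reached the range of the other in either subunit.

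In the large subunit, 17 of 30 genes fell, none rose, and all 30 changes were negative, with a median of -0.17 (log2). Rpl36a, a large subunit protein encoded on the X chromosome, read 10.17, 9.998, 9.92, 10.20 and 10.27 (log2 RMA values) on PGC-1alpha-mTg arrays, against 10.52, 10.47, 10.55, 10.48 and 10.46 on WT arrays. All 5 transgenic arrays lay below the lowest WT array, and arrays 2 and 3 lay furthest down. The change was -0.38 ± 0.07 (log2, SE, n = 5 a group, adjusted p = 2.39e-04), the furthest fall of the 58 genes. Rpl10, also X-linked, joins the large subunit late in its assembly. It read 11.78, 11.74, 11.68, 11.81 and 11.85 in PGC-1alpha-mTg muscle, against 12.08, 12.09, 12.12, 12.12 and 12.05 in WT muscle. The groups stood well apart and the arrays within each lay close together, and the change was -0.32 ± 0.04 (adjusted p = 9.87e-07).

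Rpl8, which lies at the peptidyl transferase centre, read 9.80, 9.54, 9.51, 9.61 and 9.74 in PGC-1alpha-mTg muscle, against 9.91, 9.94, 9.98, 9.88 and 9.94 in WT muscle. PGC-1alpha-mTg array 1 came nearest to WT without reaching it, and the change was -0.29 ± 0.05 (adjusted p = 8.34e-05). Rpl5, which carries the 5S rRNA into the ribosome and can bind the p53 regulator Mdm2, read 10.14, 10.06, 10.06, 10.12 and 10.30 in PGC-1alpha-mTg muscle, against 10.37, 10.40, 10.43, 10.43 and 10.36 in WT muscle. Array 5 of the transgenic group was the highest of its group and still below WT, and the change was -0.26 ± 0.05 (adjusted p = 1.09e-04). Rpl11, the partner of Rpl5 in that particle, is not analysed here.

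Rpl7 read 9.64, 9.70, 9.61, 9.61 and 9.61 in PGC-1alpha-mTg muscle, against 9.91, 9.81, 9.91, 10.02 and 9.85 in WT muscle (-0.26 ± 0.04, adjusted p = 8.38e-05). Rpl27a read 9.83, 9.82, 9.77, 9.85 and 9.84 in PGC-1alpha-mTg muscle, against 10.08, 10.11, 10.09, 10.09 and 10.03 in WT muscle (-0.26 ± 0.05, adjusted p = 1.24e-04). Both sets of arrays were free of overlap, and the transgenic arrays of both genes lay within 0.1 of each other. Rpl4, which lines the exit tunnel for the growing chain, Rpl6 and Rpl21 changed by -0.21 ± 0.04, -0.21 ± 0.04 and -0.20 ± 0.04, again with no overlap. Rpl22, Rpl10a, Rpl26, Rpl28, Rpl13, Rpl7a, Rpl9 and Rpl30 made up the rest of the 17, with changes of -0.20 to -0.13. Rpl30 averaged 6.80 in WT and 6.67 in PGC-1alpha-mTg muscle, where a level cannot be set apart from background in these files. The calls of Rpl22 (without WT array 1), Rpl26 (without WT array 1 or 2), Rpl9 (without PGC-1alpha-mTg array 5) and Rpl30 (without WT array 2, 3 or 4, or PGC-1alpha-mTg array 2, 3 or 4) were lost when 1 array was left out, with adjusted p-values up to 0.110.

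Among the 13 large subunit genes that were not called, Rpl12 had 5.67, 5.81, 5.86, 5.54 and 5.82 on PGC-1alpha-mTg arrays, against 6.06, 5.93, 5.87, 5.90 and 5.98 on WT arrays. It is among the dimmest members, its groups just failed to overlap, and its change of -0.21 ± 0.09 did not pass (adjusted p = 0.114). Rpl23 (-0.02 ± 0.04), Rpl38 (-0.02 ± 0.05), Rpl23a (-0.04 ± 0.04) and Rpl36 (-0.05 ± 0.05) had the changes nearest to 0.

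**Figure D3:**
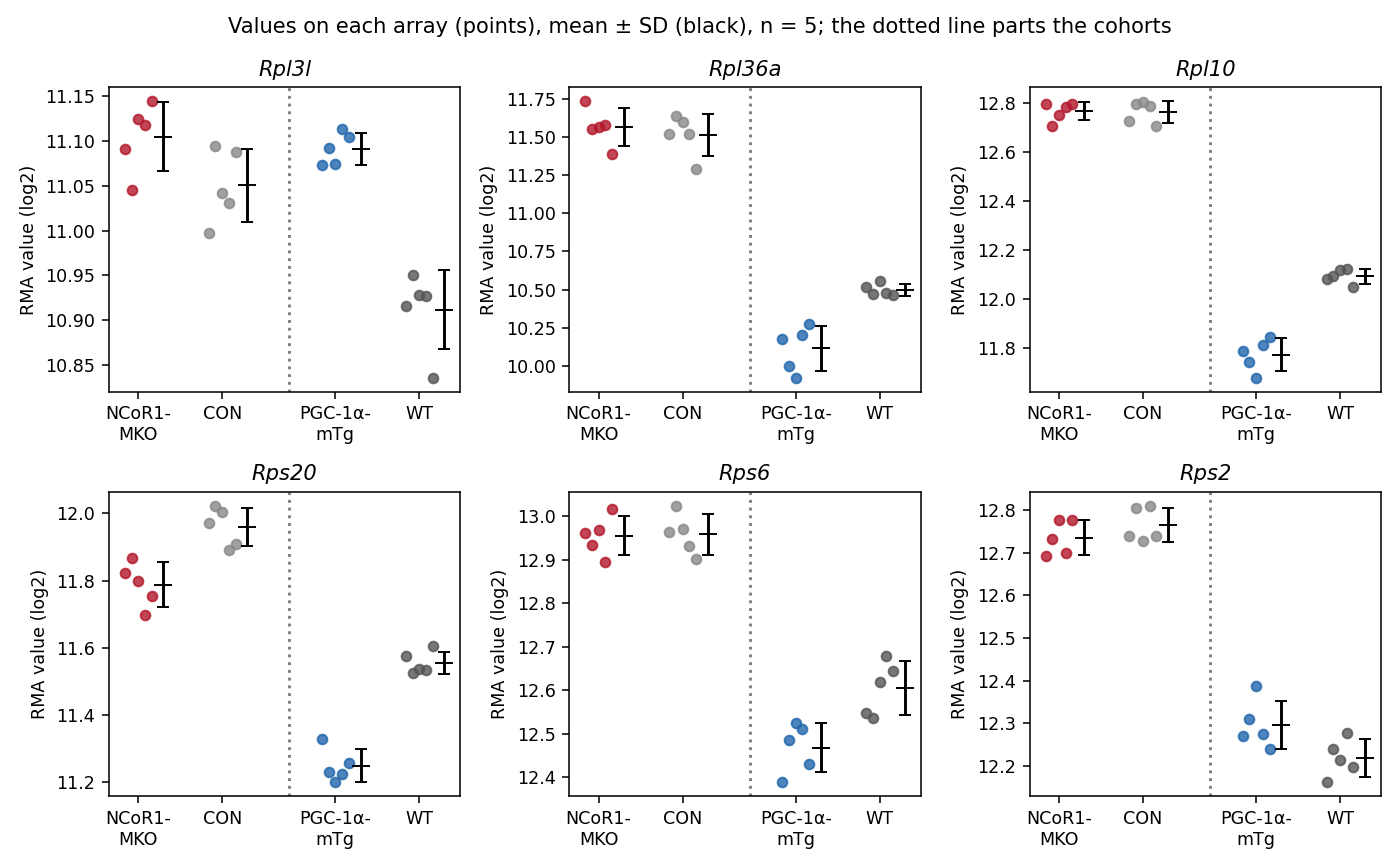
RMA values (log2) of 6 genes on each array, as points, with the mean ± SD of each group in black; the dotted line parts the cohorts, whose levels are not compared. Rpl3l lies higher in PGC-1alpha-mTg than in WT muscle, Rpl36a, Rpl10, Rps20 and Rps6 lie lower, and Rps2 overlaps.

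In the small subunit, 10 of 21 genes fell and none rose, with a median of -0.13 (log2). Rps20, which binds rRNA in the head of the small subunit, read 11.33, 11.23, 11.20, 11.23 and 11.26 in PGC-1alpha-mTg muscle, against 11.57, 11.53, 11.54, 11.53 and 11.60 in WT muscle. The lowest WT array stood 0.2 above the highest transgenic array, and the change was -0.31 ± 0.04 (adjusted p = 4.28e-06). Rps4x, the X-linked member of the subunit, read 9.86, 9.74, 9.76, 9.76 and 9.83 in PGC-1alpha-mTg muscle, against 9.97, 10.03, 9.96, 10.02 and 9.97 in WT muscle (-0.20 ± 0.04, adjusted p = 2.03e-04). Its groups did not overlap, so all 3 X-linked members fell. By the position of the named gene, not of its probe set, members lie on 17 chromosomes, and those that fell lie on 12 of them. On chromosome 5, 4 of 4 members fell and on chromosome 12, 0 of 3, against 46.6% of all members. With so few members on each chromosome, these shares were not tested.

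Rps15, a protein of the subunit's head near the decoding site, read 11.94, 11.75, 11.70, 11.84 and 11.95 in PGC-1alpha-mTg muscle, against 12.04, 12.04, 12.02, 12.00 and 12.04 in WT muscle. The WT arrays lay within 0.04 of each other and all above the transgenic arrays, and the change was -0.19 ± 0.04 (adjusted p = 0.00169). Rps6, the subunit's best known phosphoprotein and a target of the S6 kinases, read 12.39, 12.49, 12.52, 12.51 and 12.43 in PGC-1alpha-mTg muscle, against 12.55, 12.54, 12.62, 12.68 and 12.64 in WT muscle. The gap between the groups was narrow, and the change was -0.14 ± 0.04 (adjusted p = 0.0154). Rps25 (-0.19 ± 0.05), Rps3 (-0.17 ± 0.05), which lies at the mRNA entry channel, and Rps10 (-0.17 ± 0.04) also fell without overlap.

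Rps21, Rps12 and Rps13 were called with overlapping arrays, at adjusted p-values of 0.0361, 0.0253 and 0.0475, and were the least stable of the small subunit calls. Rps13 lost its call when any 1 of 15 of the 20 arrays was left out, including every WT array and PGC-1alpha-mTg arrays 1 to 4, with adjusted p-values up to 0.147. Rps12 lost it without WT array 1, 3 or 4 or PGC-1alpha-mTg array 3 or 4, and Rps21 without WT array 1, 2 or 3 or PGC-1alpha-mTg array 2, 3 or 4, with adjusted p-values up to 0.101. Rps21 was also not called when the mean of its probe sets was taken.

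The only small subunit genes with positive changes were Rps29 (0.10 ± 0.06), Rps2 (0.08 ± 0.04) and Rps9 (0.07 ± 0.06), none of which passed. Rps2 read 12.27, 12.31, 12.39, 12.27 and 12.24 in PGC-1alpha-mTg muscle, against 12.16, 12.24, 12.21, 12.28 and 12.20 in WT muscle, with overlap (adjusted p = 0.150). Rpsa, which doubles as the laminin receptor, read 10.02, 10.01, 9.95, 9.95 and 10.16 in PGC-1alpha-mTg muscle, against 10.19, 10.16, 9.998, 10.07 and 10.01 in WT muscle. Its change was -0.07 ± 0.06, within the spread of the arrays (adjusted p = 0.411).

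Rpl3l was the member that rose. It read 11.07, 11.09, 11.07, 11.11 and 11.10 on PGC-1alpha-mTg arrays, against 10.92, 10.95, 10.93, 10.93 and 10.84 on WT arrays. Every transgenic array lay above every WT array, and within the transgenic group the arrays lay within 0.04 of each other. The change was 0.18 ± 0.04 (log2, adjusted p = 4.77e-04), that is 13.3% higher, and it passed in all 20 fits that left out 1 array, at 0.16 to 0.19. It rests on 1 probe set. Of all genes, 8.72% had all 5 PGC-1alpha-mTg arrays above all WT arrays, and 23.3% of bright genes did.

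The other 6 paralogs or like genes were not called. Rps27l, a p53 target, had 10.55, 10.58, 10.50, 10.53 and 10.54 in PGC-1alpha-mTg muscle, against 10.63, 10.57, 10.58, 10.54 and 10.50 in WT muscle (-0.03 ± 0.05, adjusted p = 0.729). Rpl7l1 read 9.34 to 9.49 in PGC-1alpha-mTg muscle, against 9.35 to 9.51 in WT muscle, a change of 0.003 ± 0.04, while Rpl7 fell by 0.26 as above. Rpl10l (0.06 ± 0.10) and Rpl39l (0.05 ± 0.05), both known mainly from the testis, Rpl32l (-0.09 ± 0.08) and Rps4l (-0.06 ± 0.05) had means under 6.7 over the 20 arrays. In WT and PGC-1alpha-mTg muscle alone, Rpl32l averaged 7.04 and 6.95 and Rpl10l 6.83 and 6.89. At such levels signal cannot be set apart from background in these files, and the same holds for Rpl30, which was called lower. The fall of a subunit gene and the change of its paralog were measured on different probe sets, and the difference between them was not tested.

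Probe sets give a further view of the same arrays. The 58 members are covered by 212 probe sets with 1 symbol, of which 19 hold the same values as another, and 37 members have several. Ribosomal protein genes have many processed pseudogenes and near-identical copies, so a probe set may read more than its own gene, and gene identity is uncertain to that extent. Taken one by one, 122 of the 212 probe sets (57.5%) were lower in PGC-1alpha-mTg muscle and 1, that of Rpl3l, was higher, against 16.9% lower among all probe sets with 1 symbol. In the brightness range of the members, 102 of their 168 probe sets (60.7%) were lower, against 40.5% of all 2966. These shares count a gene once for each of its probe sets, up to 14 times for Rps12. By gene, 30 of 58 members had at least 1 lower probe set and 20 had only lower ones. Probe sets disagreed in direction for 2 genes, Rps21 (-0.18 and 0.02) and Rps4l (-0.06 and 0.06). All 6 probe sets of Rpl10 fell, between -0.34 and -0.30, as did all 9 of Rpl27a, between -0.27 and -0.19. Every probe set of Rps2, Rps9 and Rps29 had a positive change. Of the 15 subunit genes with 1 probe set 7 fell, and all 15 had negative changes, with a median of -0.18.

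**Figure D4:**
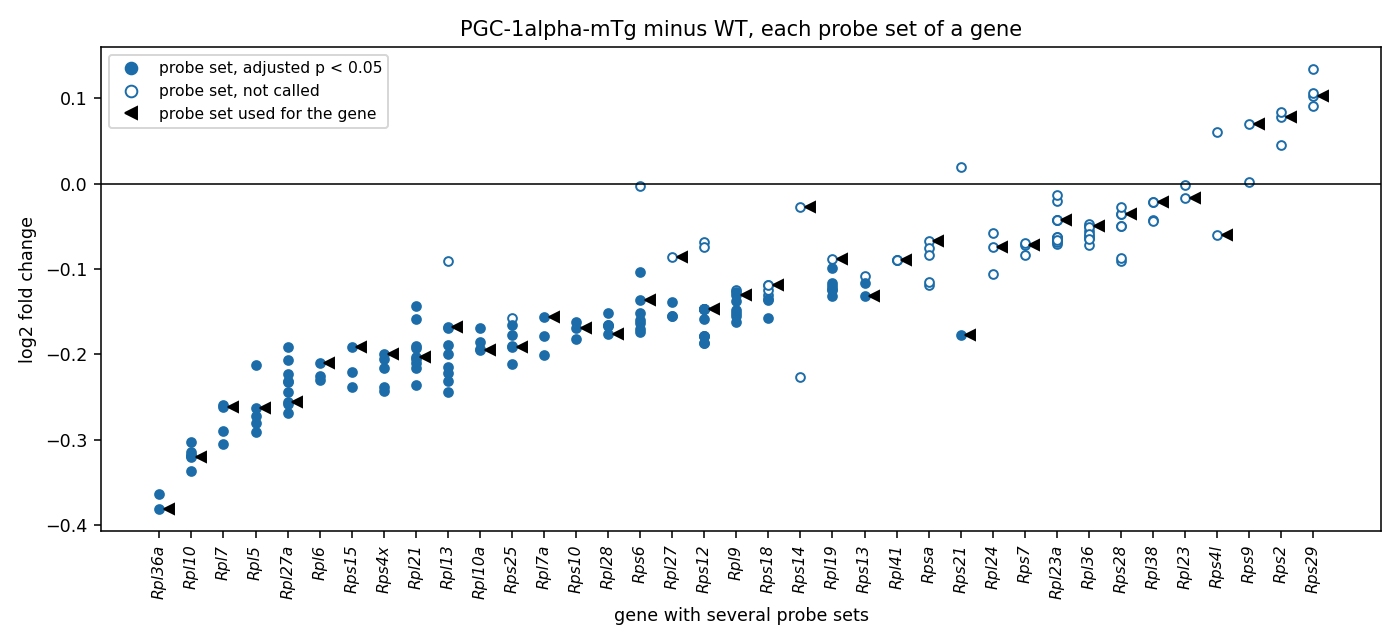
The log2 change in PGC-1alpha-mTg minus WT muscle is shown for every probe set of the 37 members with several, filled where the adjusted p is under 0.05, with a triangle at the brightest one, which stands for the gene. Probe sets of one gene lie within 0.1 of each other except for Rps14, Rps21, Rps6, Rpl13, Rps4l and Rps12.

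Loss of NCoR1 left the family nearly where it was. In NCoR1-MKO muscle 1 of 58 members, Rps20, fell relative to CON and none rose, against 1.32% of all genes lower and 1.31% higher, 2.63% in all (limma). Among bright genes 3.96% were lower and 4.94% higher, 8.89% in all. None had all 5 NCoR1-MKO arrays above all CON arrays, against 2.21% of all genes and 7.68% of bright genes. At an unadjusted p under 0.05, 3 members were higher and 3 lower. The median change was 0.0017 (log2), with 30 positive and 28 negative changes. In tests on simulated data for this comparison 30% of genes changed by 0.2 and 68% of genes changed by 0.3 were recovered. Those data gave 104 calls in all, against 525 in the real comparison, so the shares are not the sensitivity for the members. The mean deviation of all members from their CON mean was -0.023 to 0.028 on the NCoR1-MKO arrays, against -0.040 to 0.039 on the CON arrays. On NCoR1-MKO arrays 1 to 5, 21, 32, 26, 30 and 30 of the 58 members lay below the CON mean, against 41, 23, 12, 22 and 45 on CON arrays 1 to 5, where the own value was again left out.

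Rps20 read 11.82, 11.87, 11.80, 11.70 and 11.75 on NCoR1-MKO arrays, against 11.97, 12.02, 12.00, 11.89 and 11.91 on CON arrays. All NCoR1-MKO arrays lay below all CON arrays, by a narrow margin, as did 1.96% of all genes and 6.03% of bright genes. The change was -0.17 ± 0.04 (adjusted p = 0.0239), and Rps20 is thus the member that fell in both models. The call was lost without CON array 1, 2 or 3 or NCoR1-MKO array 4 or 5 (adjusted p-values up to 0.0738) and when only these 10 arrays were fitted (adjusted p = 0.0862).

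Rpl3l read 11.09, 11.04, 11.12, 11.12 and 11.14 in NCoR1-MKO muscle, against 10.998, 11.09, 11.04, 11.03 and 11.09 in CON muscle. The groups overlapped and the change of 0.05 ± 0.04 did not pass (adjusted p = 0.659). Among positive changes the smallest p-values were those of Rpl12 and Rps27l. Rpl12 read 5.89, 6.37, 6.19, 6.41 and 5.89 in NCoR1-MKO muscle, against 5.72, 6.00, 5.91, 6.11 and 5.83 in CON muscle, and its change of 0.24 ± 0.09 missed the threshold (adjusted p = 0.266). Rps27l changed by 0.10 ± 0.05 (adjusted p = 0.348) and Rpsa by 0.12 ± 0.06 (adjusted p = 0.387). The members with the furthest falls in PGC-1alpha-mTg muscle, Rpl36a, Rpl10 and Rpl8, had changes of 0.05 ± 0.07, 0.003 ± 0.04 and 0.005 ± 0.05 in NCoR1-MKO muscle.

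The effects of the transgene and of the knockout were set against each other in the same fit. For 15 members the change in PGC-1alpha-mTg minus WT muscle was lower than that in NCoR1-MKO minus CON muscle, and for none was it higher, against 8.5% of all genes lower and 6.66% higher, 15.2% in all. Among bright genes 23.1% were lower and 18.7% higher, 41.8% in all, while of the 43 bright members 13 (30.2%) were lower and none higher. Of the 15, 13 belong to the large and 2 to the small subunit, and 14 are among the 27 that fell in PGC-1alpha-mTg muscle. The differences furthest from 0 among the brighter members were those of Rpl36a (-0.43 ± 0.10, adjusted p = 0.00419), Rpl10 (-0.32 ± 0.06, adjusted p = 2.03e-04), Rpl8 (-0.29 ± 0.07, adjusted p = 0.00484) and Rpl5 (-0.24 ± 0.07, adjusted p = 0.0120). Rpl12 also passed (-0.44 ± 0.13, adjusted p = 0.0263), but its probe set averaged 5.94 over the 20 arrays, where a level cannot be set apart from background. It lost this call without CON array 1, NCoR1-MKO array 2 or 4, WT array 1 or PGC-1alpha-mTg array 4, at adjusted p-values up to 0.0561. For Rps20 (-0.13 ± 0.06, adjusted p = 0.138) and Rpl3l (0.13 ± 0.05, adjusted p = 0.107) the effects of the 2 models were not shown to differ.

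Genes next to the family were read from lists chosen with results of these data known. Of 9 listed ribosomal proteins whose symbols fall outside the rule, 4 had a value here: Fau, the acidic stalk proteins Rplp1 and Rplp2, and Rplp0, the base of the stalk. In PGC-1alpha-mTg muscle Fau fell (-0.11 ± 0.04, adjusted p = 0.0436), while Rplp0 (-0.09 ± 0.04, adjusted p = 0.0757), Rplp1 (-0.11 ± 0.05, adjusted p = 0.0930) and Rplp2 (-0.02 ± 0.08) did not pass. None of the 4 was called in NCoR1-MKO muscle, against 2.63% of all genes.

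Of 17 measured genes on a list of elongation factors and other mRNAs with TOP tracts, 10 fell in PGC-1alpha-mTg muscle and none rose. The other 7 were not called, and the median was -0.20. Called lower were 58.8% of the list, against 16.1% of all genes and 39.3% of bright genes. Of all genes 11.9% and of bright genes 24.6% were called higher. Eif4b, an initiation factor that stimulates the helicase eIF4A, read 10.43, 10.17, 10.08, 10.34 and 10.38 in PGC-1alpha-mTg muscle, against 10.63, 10.75, 10.82, 10.71 and 10.72 in WT muscle (-0.44 ± 0.06, adjusted p = 5.14e-06). Its groups did not overlap. Pabpc1, the poly(A)-binding protein, changed by -0.32 ± 0.05, and Eif3e and Eif3f, subunits of the initiation factor eIF3, by -0.38 ± 0.06 and -0.27 ± 0.05. Of the elongation factors, Eef2 fell (-0.13 ± 0.04, adjusted p = 0.0229), while Eef1a1 (-0.08 ± 0.05) and Eef1a2 (-0.03 ± 0.04), the form of mature muscle and nerve, did not pass. No gene of the list was called in NCoR1-MKO muscle, against 2.63% of all genes and 8.89% of bright genes.

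Of 43 genes of ribosome biogenesis, 21 fell and 3 rose in PGC-1alpha-mTg muscle, with a median of -0.13. None was called in NCoR1-MKO muscle, against 2.63% of all genes. In PGC-1alpha-mTg muscle 48.8% of the list was called lower, against 16.1% of all genes and 39.3% of bright genes. Called higher were 6.98% of the list, against 11.9% of all genes and 24.6% of bright genes. The list averaged 7.94 on WT arrays, against 10.02 for bright genes, so the bright share is not matched to it in signal. Nop56, a core protein of the box C/D particles that methylate rRNA, read 8.82, 8.73, 8.65, 8.89 and 8.96 in PGC-1alpha-mTg muscle, against 9.29, 9.24, 9.33, 9.31 and 9.18 in WT muscle (-0.46 ± 0.07, adjusted p = 1.70e-05). Its transgenic arrays all lay below WT. Pes1 (-0.33 ± 0.06), needed to mature the large subunit, and the nucleolar helicase Ddx21 (-0.26 ± 0.05) fell as well. Nop10, of the box H/ACA particles, rose by 0.26 ± 0.04 (adjusted p = 2.38e-05). On the arrays the mean of this list spread more than that of the ribosomal proteins, from -0.21 on PGC-1alpha-mTg array 2 to -0.026 on PGC-1alpha-mTg array 5, against -0.042 to 0.032 on WT arrays.

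The mitochondrial ribosomal proteins went the other way. They averaged 0.31 to 0.42 above their WT mean on the 5 PGC-1alpha-mTg arrays, where the 51 cytosolic subunit genes averaged -0.18 to -0.10. Of the 77 mitochondrial genes, 62 were called higher and none lower in PGC-1alpha-mTg muscle. Of all genes 11.9% were called higher and 16.1% lower there, and of bright genes 24.6% higher and 39.3% lower. The mitochondrial genes averaged 8.57 on WT and 8.61 on CON arrays, against 10.02 and 10.38 for bright genes. The bright shares are therefore not matched to them in signal. In NCoR1-MKO muscle 2 of the 77 mitochondrial genes were called higher and none lower, with 64 positive changes and a median of 0.066. Of all genes 1.31% were called higher in that model, and of bright genes 4.94%. The mean of the mitochondrial genes relative to CON was 0.023 to 0.098 on NCoR1-MKO and -0.041 to 0.044 on CON arrays. The proteasome core, another abundant complex, had 3 of 19 genes higher and 2 lower in PGC-1alpha-mTg muscle, with a median of 0.03.

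**Figure D5:**
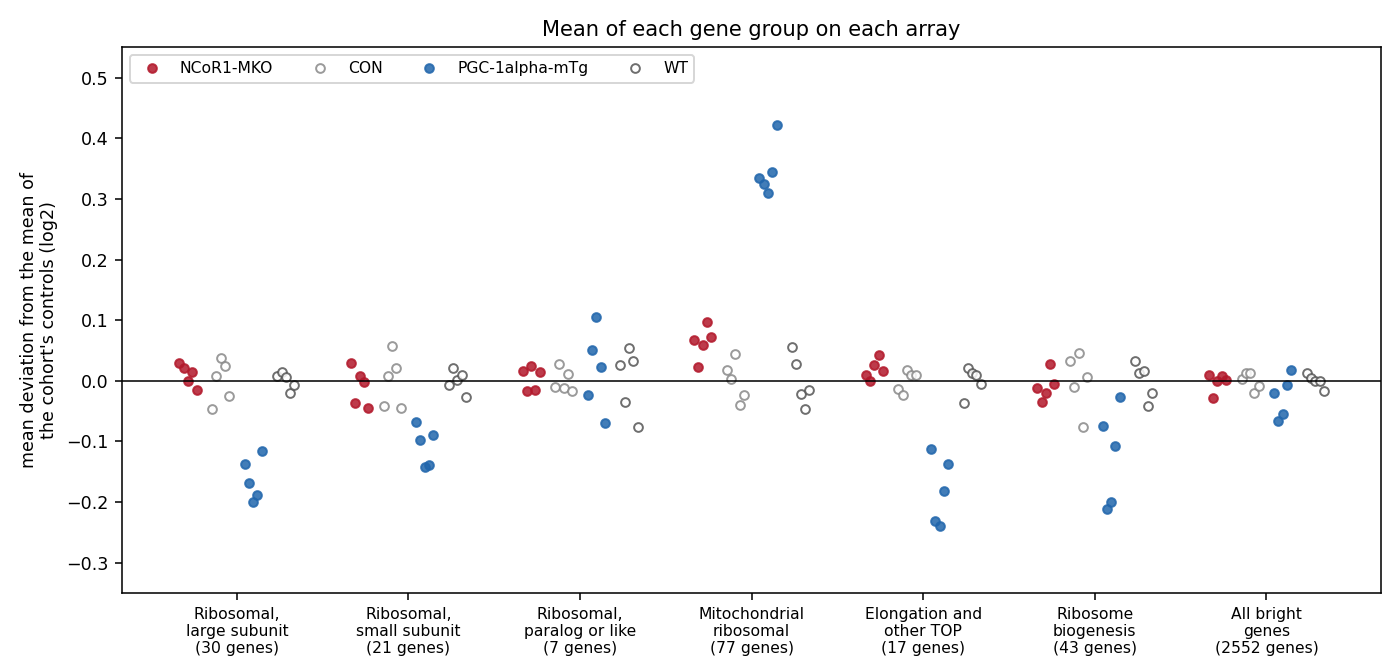
Each point is the mean deviation (log2) of a gene group on 1 array from the mean of that cohort's control arrays, filled for NCoR1-MKO and PGC-1alpha-mTg and open for CON and WT. PGC-1alpha-mTg arrays lie below 0 for both subunits, the TOP genes and ribosome biogenesis and above 0.3 for mitochondrial ribosomal proteins, while NCoR1-MKO arrays stay within 0.1 of their control mean.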

How the data were processed

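Values were deposited by the authors as RMA summaries on a log2 scale, with Partek also listed, per the submitters' processing notes. RMA corrects background, equalises the arrays' distributions and combines the probes of a set. No version or genome build is named, and the log base is inferred from the method, so coordinates are given only for the RefSeq windows. Arrays have no sequencing depth, and precision rests on 5 arrays a group.

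Of 35556 probe sets, 21789 carried 1 gene symbol in the platform annotation, 1621 several and 12146 none here. The brightest probe set over the 20 arrays stood for each of 19938 genes, with no filter on dim genes. All 58 members matched RefSeq by Entrez number. A linear model with 4 group means (limma 3.58.1, R 4.3.3, eBayes) was fitted over 20 arrays, two-sided, with Benjamini-Hochberg adjustment over all genes. Contrasts were NCoR1-MKO minus CON, PGC-1alpha-mTg minus WT, and the difference of these effects. The scripts were tested on simulated data.

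The members, the gene lists and the rule for named genes were chosen with earlier results of these data known. The rule takes Rpl3l, paralogs with their parents, the 10 largest rises and falls called per comparison (the 2 smallest p-values where none is called), up to 5 called differences, Rps6, Rpsa, ribosomal proteins outside the symbol rule, members with discordant probe sets or an array far from its group, and up to 4 genes a context list. Genes named beside these, such as Rps15, Rps3, Rps2, Rpl23, Eef2, Eef1a1, Eef1a2, Tsc1 and Tsc2, were chosen after their values were seen. Alternatives were other normalizations, probe set rules, variance models, array weights, a replicate block, arrays left out and a filter on dim genes.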

Additional observations from a re-analysis of the deposited data

Results flagged for a closer look

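Of 232 groups of 5 arrays (58 members in 4 groups), 10 held a value far from the other 4 by Dixon's criterion, and chance alone gives about 1 in 20. Values above their group were Rpl22 on CON array 2 (8.39, others 8.15 to 8.17), Rpl23a on CON array 3 (9.95, others 9.87 to 9.88), Rpl34 on CON array 3 (10.51, others 10.28 to 10.34), Rpl29 on WT array 5 (9.85, others 9.72 to 9.75) and Rps10 on PGC-1alpha-mTg array 5 (11.10, others 11.01 to 11.04). Values below their group were Rpl19 on WT array 1 (11.61, others 11.72 to 11.75), Rpl8 on NCoR1-MKO array 2 (10.15, others 10.18 to 10.19), Rps15a on NCoR1-MKO array 2 (7.10, others 7.48 to 7.58), Rps29 on NCoR1-MKO array 5 (9.28, others 9.41 to 9.46) and Rps29 on WT array 4 (9.11, others 9.26 to 9.31). All are log2 RMA values.

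The test of the difference between the models, PGC-1alpha-mTg minus WT less NCoR1-MKO minus CON, passed for 15 members, all negative on the log2 scale. Beside the 5 given above, Rpl12 (-0.44), Rpl36a (-0.43), Rpl10 (-0.32), Rpl8 (-0.29) and Rpl5 (-0.24), they were Rpl27a (-0.23), Rpl7 (-0.23), Rpl4 (-0.23), Rpl28 (-0.23), Rpl21 (-0.23), Rpl6 (-0.21), Rps4x (-0.21), Rpl30 (-0.21), Rpl10a (-0.20) and Rps10 (-0.16). With single arrays removed, Rps10 lost the call in 14 of 20 fits and Rpl30 in 9.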

How the results depend on the processing

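No result reversed. Of 1318 alternatives for 46 single-gene results, 1216 kept direction and side of the threshold, 101 lost the call and 1 gained it. Most of these results were taken because they were called in the same data. Leaving out an array of the other cohort cannot move a log2 change within a model, so its direction was fixed in advance in those fits. The tally is therefore no measure of robustness. When only the 10 arrays of the comparison were fitted, 0 members were called in NCoR1-MKO muscle and 24 of 28 calls were kept in PGC-1alpha-mTg muscle (Rpl26, Rpl30, Rps12 and Rps13 lost, Rpl12 added). Over the fits that left out 1 array, 0 to 1 were called in NCoR1-MKO muscle, 0 to 1 lower. In PGC-1alpha-mTg muscle these fits called 24 to 29 members, 23 to 28 lower and 1 higher. With quantile normalization over 20 arrays 2 were higher (Rps29 added) and 23 of 28 calls were kept (Rpl13, Rpl26, Rps12, Rps13 and Rps21 lost), and with a trended robust variance model 2 (Rps2 added). Averaging probe sets instead of taking the brightest cost Rps21 its call and added Rpl19 and Rpl27. Without the 7 paralog or like genes 0 were higher. For the difference of effects, 12 to 18 were lower and 0 to 1 higher in the fits without 1 array (Rpl39l without CON array 1), and the trended robust model called 1 higher, Rpl3l (0.1256, adjusted p = 0.0388). Taking each probe set as a feature, chosen after seeing the data, gave 123 calls in PGC-1alpha-mTg muscle, 122 lower, and 58 for the difference, all 58 lower. Without PGC-1alpha-mTg arrays 2 and 3, also chosen after seeing the data, 22 of 28 calls were kept; Rpl22, Rpl26, Rpl30, Rps12, Rps13 and Rps21 were lost. The cause of these shifts was not tested. A replicate block gave 26 calls in PGC-1alpha-mTg muscle (25 of the 28 kept, Rpl12 added), 1 in NCoR1-MKO muscle and 10 for the difference, but same-numbered arrays correlated at -0.232 to 0.196 over genes in their deviations from the group means, so the numbers were not taken as pairs. In simulated data for PGC-1alpha-mTg minus WT, 24% of genes changed by 0.2 (log2) were recovered, so changes of this size can be missed. Those data gave 99 calls in all, against 5575 in the real comparison, which makes the adjusted threshold stricter. The share is therefore not the sensitivity for the members.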

Other observations

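Of 20 genes of RNA polymerase I and rDNA transcription, 5 fell and 1 rose in PGC-1alpha-mTg muscle, with a median of -0.08. None was called in NCoR1-MKO muscle, against 2.63% of all genes. In PGC-1alpha-mTg muscle 25% of the list was called lower, against 16.1% of all genes and 39.3% of bright genes. The list averaged 7.95 on WT arrays, against 10.02 for bright genes, so the bright share is not matched to it in signal. Polr1a, the catalytic subunit that makes the rRNA precursor, read 7.67, 7.56, 7.50, 7.66 and 7.90 in PGC-1alpha-mTg muscle, against 8.19, 8.11, 8.20, 8.08 and 8.14 in WT muscle. Its groups did not overlap, and the change was -0.49 ± 0.06 (log2, limma, adjusted p = 8.24e-07). Polr2f, a subunit that RNA polymerases I, II and III share, rose by 0.23 ± 0.05 (adjusted p = 6.70e-04).

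Of 17 measured regulators of TOP mRNAs and ribosomal protein translation, 7 fell and 1 rose in PGC-1alpha-mTg muscle, with a median of -0.16. Called lower were 41.2% of the list, against 16.1% of all genes and 39.3% of bright genes. These regulators averaged 8.75 on WT and 9.27 on CON arrays, against 10.02 and 10.38 for bright genes. The bright shares are therefore not matched to them in signal. Larp1, which binds the TOP tract, read 9.46, 9.41, 9.30, 9.41 and 9.51 in PGC-1alpha-mTg muscle, against 9.92, 9.94, 9.92, 9.90 and 9.78 in WT muscle (-0.47 ± 0.04, adjusted p = 2.03e-08). Eef2k, the kinase that inhibits elongation factor 2, changed by -0.55 ± 0.07 and Eif4ebp2, a repressor of the cap-binding factor eIF4E, by -0.45 ± 0.05. Tsc1, part of the brake on mTORC1, fell (-0.38 ± 0.06), while its partner Tsc2 rose (0.16 ± 0.04).

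In NCoR1-MKO muscle 3 of the 17 regulators (17.6%) fell and none rose, against 1.32% of all genes and 3.96% of bright genes called lower. Rps6ka3, a kinase of the RSK family, read 9.52, 9.37, 9.29, 9.38 and 9.33 in NCoR1-MKO muscle, against 9.81, 9.95, 9.96, 9.80 and 9.89 in CON muscle (-0.50 ± 0.05, adjusted p = 1.32e-06). It also fell in PGC-1alpha-mTg muscle, to 8.70 to 8.91, against 9.26 to 9.30 in WT muscle (-0.46 ± 0.05, adjusted p = 1.25e-07). The cap-binding factor Eif4e (-0.26 ± 0.06) and its repressor Eif4ebp1 (-0.26 ± 0.07) were the others.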
